A study of Mus musculus with 10 samples.

Results

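Tudor domains are protein modules, some of which bind methylated arginine. In male germ cells, a family of proteins with repeated Tudor domains gathers PIWI proteins and their small guide RNAs, the piRNAs, into granules: the cement between mitochondria in spermatogonia and spermatocytes and the chromatoid body of spermatids. These granules are known for piRNA production and for silencing of transposons, and loss of several of the proteins stops spermatogenesis.

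The genes described are Tdrd1, Tdrd9, Tdrkh, Tdrd12, Rnf17, Tdrd5, Tdrd6, Tdrd7, Stk31 and Tdrd3, chosen by name, and all 10 had a row in the scRNA-seq matrix (28125 genes) and in the scATAC-seq matrix (30670 genes). Each of the 10 also passed the filter on low values (a mean over the 13 cell populations of at least 0.05 UMIs per 10000), as did 15250 genes in all. Nuclei of whole testes came from wild-type C57BL/6J mice at 11, 17 and 25 days postpartum (dpp), from 8-week-old Cre/+ mice and from 8-week-old Nfya-CKO mice. Cre/+ and Nfya-CKO mice both carry Stra8-Cre, a Cre knocked in at Stra8, which is switched on in spermatogonia. Nfya-CKO mice also carry Nfya fl/fl, so that Cre removes part of the gene of NFYA, the DNA-binding subunit of the CCAAT-box factor NF-Y, in germ cells.

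RNA and chromatin accessibility were profiled together, although not every cell with RNA had a paired accessibility profile. Every condition had 1 library for each assay, so no p-value is given and differences are described by size. Each population's value is a mean over its cells pooled over libraries. RNA values are UMIs (counted molecules) per 10000 UMIs of a cell, and their 95% intervals are exact Poisson intervals on the 228962 (unknown cells) to 30014095 (mP/lP) UMIs behind a population, which cover counting error only. A lower value cannot tell less RNA per cell from fewer cells that carry the RNA.

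The 9 control germ cell populations were undifferentiated and differentiating spermatogonia (undiff. SpG and diff. SpG), preleptotene (pL), early leptotene to zygotene (eL/L/Z), leptotene to early pachytene (L/Z/eP), middle and late pachytene (mP/lP) and diplotene (D) spermatocytes, and round and elongating spermatids (RS and ES). The other 4 were spermatogonia of the library labelled Nfya-CKO (Nfya-CKO SpG), Sertoli cells, other somatic cells and unknown cells (99 cells). Library totals ran from 30227701 to 64967271 UMIs. Ages differed between populations: 50% of undiff. SpG came from 11 dpp and 7.89% from Cre/+, while 84.5% of diff. SpG came from Cre/+.

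Libraries shared cell barcodes. Of the 5152 barcodes of the Nfya-CKO library, 3813 also occurred in Cre/+, and the wild-type libraries shared 621 to 853 barcodes per pair, whereas at most 19 were shared between a wild-type and an 8-week library. In the other somatic population, 70.1% of cells had a shared barcode, as did 49.1% of diff. SpG, 59.7% of ES, 35.6% of Nfya-CKO SpG, 32.5% of undiff. SpG and 6.56% of Sertoli cells. Of 175 Nfya-CKO SpG with a barcode also in Cre/+, 143 matched a Cre/+ cell named diff. SpG, with a median of 21471 UMIs on the Nfya-CKO side and 2275 on the other. The deposited means hold these cells, and no value could be recomputed without them.

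Transcripts of Nfya were at 1.11 in Nfya-CKO SpG (95% interval 1.03 to 1.18) and at 0.456 in undiff. SpG (0.412 to 0.502), which is why the mutant is called here by its label. UMIs of a gene need not fall in the deleted part. By name, the Nfya-CKO library held 4 D cells and 0 mP/lP, 0 RS and 0 ES cells. The paper reports that western blots and immunohistochemistry showed NFYA protein depleted in germ cells of these mice. The 4 markers of undifferentiated spermatogonia summed to 20.6 in undiff. SpG, 18.5 in Nfya-CKO SpG and 0.761 in mP/lP. Between the first 2, Zbtb16 (8.74 and 4.15) and Sall4 (4.88 and 2.08) were lower in Nfya-CKO SpG, and Uchl1 (5.88 and 11.0) and Gfra1 (1.08 and 1.199) were higher. Sox9, which marks Sertoli cells, was at 10.7 in Sertoli cells and at most 1.90 in control germ cells, and Amh at 0.927 and at most 0.0710. Rhox5 (0.222 in Sertoli cells, 0.193 in ES) and Clu (34.1 and 31.3) did not set Sertoli cells far apart from ES, and both were higher in other somatic cells (0.239 and 91.5).

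NF-Y binds CCAAT, so the letters CCAAT were searched on both strands of the promoters. RefSeq promoter windows (GRCm38, 250 bases before to 50 after a start site) were matched by symbol for 8 of the 10 genes, in 14 windows, and none was found for Tdrd6 and Rnf17. CCAAT or its complement ATTGG occurred in windows of 2 of the 8 genes, Tdrkh and Tdrd9, against 41.1% of 27025 genes. The Tdrkh window, on chromosome 3, held 5 matches, which 0.271% of all 32851 windows reached. All 5 read ATTGG on the gene's strand and began 230, 125, 74, 51 and 24 bases before the start site of the window, which lies 1 base after the first base of the gene. The bases before the first annotated Tdrkh transcript, at chr3:94412994-94413242 on the plus strand, are printed with the matches in capitals, because accessibility fell most at this gene among the 10 in Nfya-CKO SpG.
Tdrkh: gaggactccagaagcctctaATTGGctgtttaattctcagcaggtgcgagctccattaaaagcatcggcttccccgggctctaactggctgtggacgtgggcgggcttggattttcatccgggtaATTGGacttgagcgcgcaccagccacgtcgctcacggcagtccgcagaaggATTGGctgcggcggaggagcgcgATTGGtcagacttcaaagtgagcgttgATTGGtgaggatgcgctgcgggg

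For comparison, the bases before the first Stk31 transcript, at chr6:49395289-49395505 on the plus strand, held no match. Stk31 had the next lowest accessibility ratio of Nfya-CKO SpG over undiff. SpG, though not over diff. SpG. Tdrd9 had a match that began 48 bases before the start of its window, shown within 30 bases at chr12:111971499-111971528 on the plus strand, and a match after that start. The Tdrd9 stretch lies within the annotated gene, whose first base is 111971488. A match is a run of letters, not a measured binding site.
Stk31: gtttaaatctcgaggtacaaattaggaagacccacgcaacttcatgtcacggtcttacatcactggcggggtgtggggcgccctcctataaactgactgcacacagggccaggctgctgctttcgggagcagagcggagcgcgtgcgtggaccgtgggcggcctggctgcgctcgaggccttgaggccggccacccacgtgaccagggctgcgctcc
Tdrd9: tggcacaagctgATTGGatggcctcagtga

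RNA of most of these genes dipped in pL and peaked in pachytene. In 6 of the 10 genes (Tdrd1, Tdrd9, Tdrkh, Tdrd12, Rnf17 and Tdrd5) the highest germ cell value was in mP/lP, where 11.3% of tested genes peaked. Under median-ratio scaling, which sets the median gene equal between populations, Tdrd6, Stk31 and Tdrd3 were highest there too, so that the count was 9, against 15.2% of tested genes at this scaling. In 9 of the 10, Tdrkh being the exception, RNA was lower in pL than in both diff. SpG and eL/L/Z, as in 41% of tested genes, although for Rnf17 the intervals of pL and diff. SpG overlapped. Genes of later cells were low in pL too: the 4 markers of mP/lP and D summed to 3.16 in diff. SpG, 0.436 in pL and 2.11 in eL/L/Z, and 2.50% of pL cells came from 25 dpp or Cre/+, against 96.1% of diff. SpG and 43.9% of eL/L/Z. Their part in the dip was not tested. RNA rose at each step from pL to mP/lP in 8 of the 10, against 22% of tested genes, though the last step of Tdrd3 and of Rnf17, and the step before it in Tdrd3, were within the counting intervals. The span from pL to mP/lP was at least 2-fold upwards (on the log2 scale of value + 0.1) in 7 of the 10, against 15.6%, with a median log2 change of 1.34 against -0.16 over all tested genes. From mP/lP to RS, 6 of the 10 were at least 2-fold lower, against 9.36%, and 8 of the 10 were lower at each step, against 35.1%.

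Among the genes of the mitochondrial cement, Tdrd1 is a scaffold that binds PIWI proteins. Tdrd1 RNA was 2.57 UMIs per 10000 in undiff. SpG, 1.62 in diff. SpG, 1.15 in pL, 1.77 in eL/L/Z, 2.49 in L/Z/eP, 5.01 in mP/lP (4.93 to 5.10), 2.71 in D, 1.34 in RS and 1.62 in ES. Its mP/lP level was 4.38 times that of pL. Below the peak, the intervals of D and undiff. SpG overlapped, as did those of undiff. SpG and L/Z/eP.

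Tdrd9, a putative RNA helicase that acts with nuclear piRNAs, was highest at the same stage. Its RNA was 1.95 in undiff. SpG, 1.93 in diff. SpG, 1.34 in pL, 1.99 in eL/L/Z, 2.92 in L/Z/eP, 4.18 in mP/lP (4.11 to 4.25), 2.84 in D, 2.29 in RS and 1.92 in ES. The 2 SpG populations, eL/L/Z and ES had overlapping intervals, while pL was below all of them.

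Tdrd12, a helicase-like Tudor protein of secondary piRNA production, followed the same course. Its RNA was 0.720 in undiff. SpG, 0.730 in diff. SpG, 0.453 in pL, 0.903 in eL/L/Z, 1.53 in L/Z/eP, 1.96 in mP/lP (1.91 to 2.01), 1.64 in D, 0.638 in RS and 0.609 in ES. D and L/Z/eP overlapped in their intervals, as did RS and ES.

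Tdrkh, the membrane protein that ties piRNA trimming to mitochondria, was the flattest of the cement genes up to pachytene. Its RNA was 0.853 in undiff. SpG, 0.833 in diff. SpG, 1.13 in pL (1.07 to 1.19), 0.976 in eL/L/Z, 1.04 in L/Z/eP, 1.199 in mP/lP (1.16 to 1.24), 0.859 in D, 0.489 in RS and 0.411 in ES. The pL and mP/lP intervals overlapped, and Tdrkh alone was higher in pL than in diff. SpG. The gene shares 2255 bases with Oaz3 on the other strand, a spermatid gene that was at 11.0 in ES, where Tdrkh was lowest.

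Rnf17, a RING and Tudor protein known to hold back ping-pong piRNA production in meiotic cells, had a broad peak. Its RNA was 3.92 in undiff. SpG, 5.13 in diff. SpG, 4.83 in pL, 5.96 in eL/L/Z, 7.80 in L/Z/eP (7.65 to 7.96), 7.84 in mP/lP (7.74 to 7.95), 6.69 in D, 5.99 in RS and 2.85 in ES. L/Z/eP and mP/lP were not separated, and the fall came late, with ES at 0.364 times the mP/lP level.

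Stk31, a Tudor protein with a kinase-like domain, peaked one population earlier. Its RNA was 2.16 in undiff. SpG, 1.92 in diff. SpG, 1.41 in pL, 2.80 in eL/L/Z, 3.37 in L/Z/eP (3.27 to 3.48), 3.18 in mP/lP (3.12 to 3.24), 2.10 in D, 1.14 in RS and 1.11 in ES. L/Z/eP lay above mP/lP outside the counting intervals, although under median-ratio scaling the order of the pair turned.

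**Figure D1:**
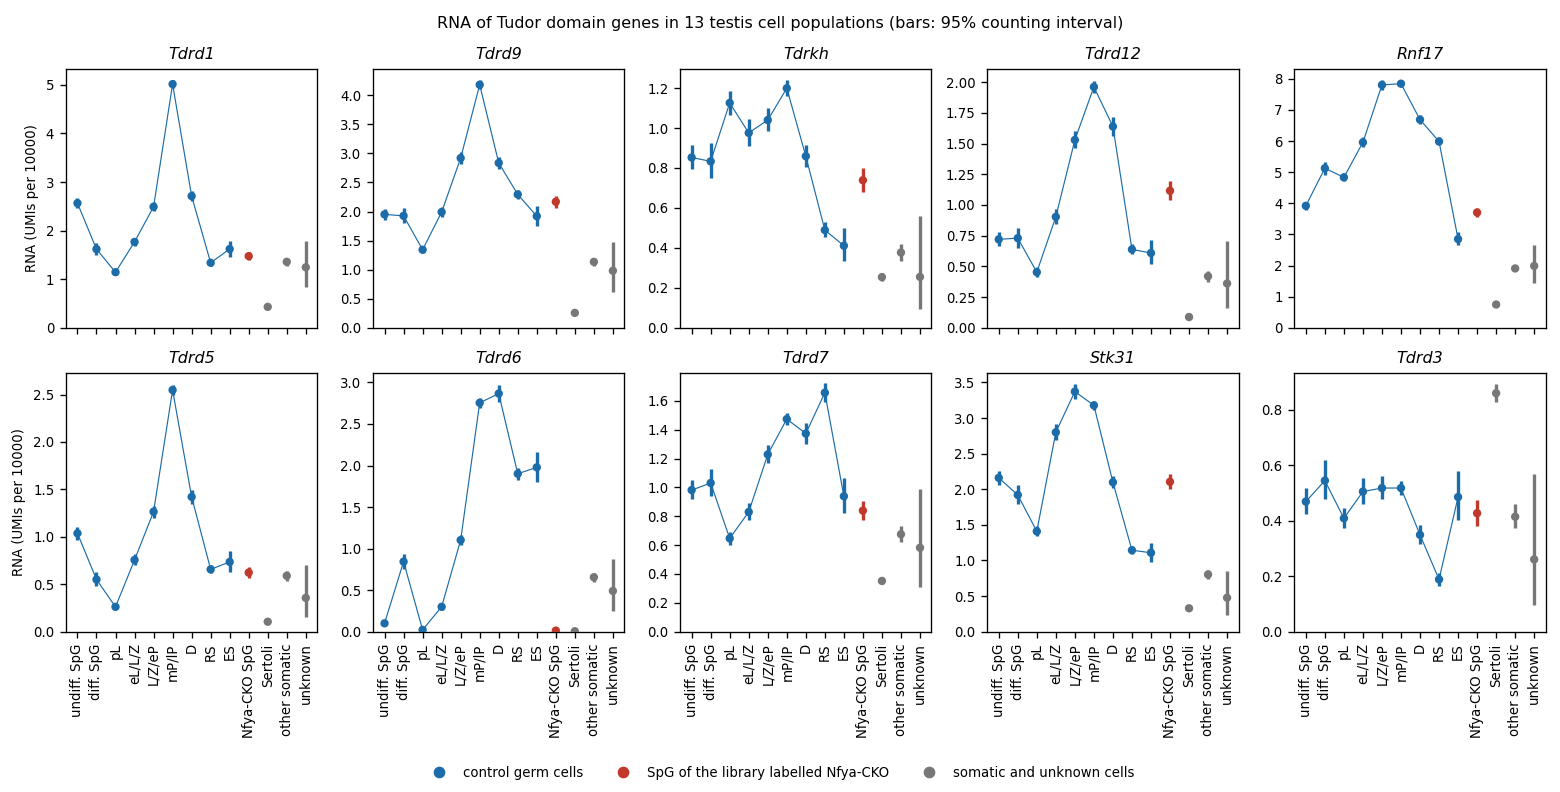
RNA of each gene (UMIs per 10000, linear axis from 0) in the 13 populations. Points are pooled means, bars are 95% counting intervals, and the line joins the 9 control germ cell populations (blue), with Nfya-CKO SpG in red and somatic and unknown cells in grey. Tdrd1, Tdrd9, Tdrd12 and Tdrd5 peak in mP/lP and, among control germ cells, are lowest in pL, Tdrd7 peaks in RS, and Tdrd3 is highest in Sertoli cells.

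Among the genes of the chromatoid body, Tdrd5, which is also needed for pachytene piRNAs, was 1.04 in undiff. SpG, 0.550 in diff. SpG, 0.262 in pL (0.234 to 0.292), 0.756 in eL/L/Z, 1.26 in L/Z/eP, 2.55 in mP/lP (2.49 to 2.61), 1.42 in D, 0.657 in RS and 0.736 in ES. Its mP/lP level was 9.73 times that of pL. RS, ES and diff. SpG overlapped with their neighbours in rank.

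Tdrd6, a large scaffold of the chromatoid body, had the widest range, with D 130.2 times above pL. Its RNA was 0.101 in undiff. SpG (0.0808 to 0.124), 0.843 in diff. SpG, 0.0220 in pL (0.0145 to 0.0321), 0.300 in eL/L/Z, 1.103 in L/Z/eP, 2.75 in mP/lP, 2.87 in D (2.77 to 2.97), 1.90 in RS and 1.98 in ES. Tdrd6 was the gene called at the most steps: it was at least 2-fold higher from pL to eL/L/Z together with Tdrd5 (4.41% of tested genes), alone at the next step, into L/Z/eP (5.45%), and from there to mP/lP (1.38%). At this last step Tdrd1 and Tdrd5 were at 2.01 times the earlier level each, and the count was 3 with 0.01 added or under median-ratio scaling. It was also alone at least 2-fold higher from undiff. to diff. SpG (9.57%) and lower from diff. SpG to pL (10.9%), a step at which Tdrd5 was at 0.476 times the earlier level and the count was 2 with 0.01 added.

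Spermatid RNAs moved with the diff. SpG value of Tdrd6. Prm1, a protamine of elongating spermatids, was at 3.94 in diff. SpG, 0.155 in undiff. SpG and 0.00525 in pL. The 7 spermatid markers, all found, summed to 11.8 in diff. SpG, 0.818 in undiff. SpG, 0.0557 in pL (with Prm2 at 0), 0.222 in Nfya-CKO SpG, 0.0402 in Sertoli cells, 5.79 in other somatic cells and 39.5 in RS. Tdrd6 was at 0.655 in other somatic cells and at 0.00554 in Sertoli cells. The intervals of Tdrd6 in Nfya-CKO SpG and pL overlapped. The marker sum was 14.4 in D and 122.5 in ES, where Tdrd6 was at 2.87 and 1.98. The part of spermatid RNA in the Tdrd6 values was not tested.

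**Figure D2:**
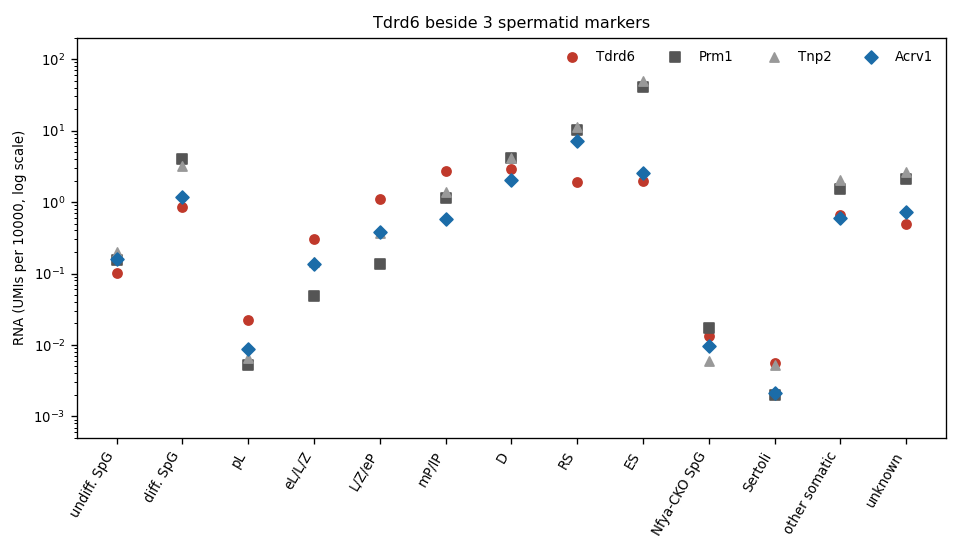
Tdrd6 RNA beside Prm1, Tnp2 and Acrv1 in the 13 populations (UMIs per 10000, log axis; points are pooled means, and where points coincide 1 hides the other). Tdrd6 is near the bottom of its range in pL, Nfya-CKO SpG and Sertoli cells, where the markers are also low, and exceeds them in eL/L/Z, L/Z/eP and mP/lP.

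Tdrd7, which helps to shape the chromatoid body, was the only one of the 10 highest in spermatids. Its RNA was 0.982 in undiff. SpG, 1.03 in diff. SpG, 0.647 in pL, 0.830 in eL/L/Z, 1.23 in L/Z/eP, 1.47 in mP/lP, 1.37 in D, 1.66 in RS (1.59 to 1.73) and 0.939 in ES. mP/lP and D were not separated by their intervals.

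Tdrd3, a reader of methylated arginine that works with a topoisomerase in many tissues, was the only one of the 10 with its highest value outside germ cells. Its RNA was 0.468 in undiff. SpG, 0.544 in diff. SpG, 0.408 in pL, 0.505 in eL/L/Z, 0.517 in L/Z/eP, 0.517 in mP/lP, 0.349 in D, 0.188 in RS (0.166 to 0.212) and 0.485 in ES. Only RS was separated from its neighbour in rank, and the highest of all 13 values was in Sertoli cells (0.859, 0.826 to 0.893).

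From D to RS, Tdrd12 and Tdrd5 were at least 2-fold lower (3.34% of tested genes), and neither was past this fold under median-ratio scaling. Tdrd1 was at 0.494 times its D level in RS, and the count was 3 with 0.01 added. From RS to ES, Tdrd3 was at least 2-fold higher (10.1%) and Rnf17 at least 2-fold lower (10%), so these 2 calls are near the share of all genes. Median-ratio scaling raised RS values by 0.52 and mP/lP values by 0.23 on the log2 scale against undiff. SpG.

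Germ cells held more of this RNA than somatic cells in 9 of the 10 genes. The highest germ cell value was at least 2-fold above the higher of Sertoli and other somatic cells in 9 of the 10, against 37.8% of tested genes, and at least 2-fold above Sertoli cells in the same 9, against 49.4%. In each of the 9 the lowest germ cell value was still above that of Sertoli cells, a count given without a share over all tested genes. The lowest germ cell value was below that of other somatic cells in Tdrd1, Tdrd5, Tdrd6 and Tdrd7, each of them lowest in pL, and also in Tdrd3. The fold of the highest germ cell value over Sertoli cells ran from 4.71 for Tdrd7 and 4.72 for Tdrkh to 24.3 for Tdrd5 and 517.6 for Tdrd6. For Tdrd3 it was 0.633. The fold of Tdrd6 rests on about 16.3 UMIs in Sertoli cells (0.00554, 0.00318 to 0.00896). Of Sertoli cells, 87.8% came from 11 dpp and 0.490% from 25 dpp or Cre/+, against 98.6% of mP/lP cells from the latter 2. Age and cell type thus cannot be told apart in these folds.

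Over other somatic cells the same folds were smaller, from 2.45 for Tdrd7 to 4.67 for Tdrd12 among the 9. That population had Tdrd1 at 1.36, Tdrd9 at 1.13 and Rnf17 at 1.91, and it also had Piwil1, a PIWI protein of pachytene cells, at 1.57, against 0.0771 in Sertoli cells. Of its 4633 cells from the Nfya-CKO library, 3628 shared a barcode with a Cre/+ cell, 3305 of them with one named as a germ cell. The median was 1209 UMIs on the Nfya-CKO side and 9447 on the Cre/+ side. Their part in the germ cell RNA of this population was not tested.

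Within the family, Tdrd1 and Tdrd5 had the most similar courses over the 9 germ cell populations (Pearson r of log2 values 0.95), followed by Tdrd9 and Tdrd5 (0.94) and Tdrd9 and Tdrd12 (0.92). The median r over the 45 pairs was 0.57, and 5 pairs were below 0, the lowest being Tdrd7 and Tdrd3 (-0.46). Over all tested genes, the closest courses were those of Adad2 for Tdrd1 (r = 0.97), Pou6f1 for Tdrd9 (0.99), Trim23 for Tdrkh (0.99), Atp8b5 for Tdrd12 (0.99), Med26 for Rnf17 (0.98), the piRNA precursor pi-Pou6f1.1 for Tdrd5 (0.98), Gm6567 for Tdrd6 (0.996), Poli for Tdrd7 (0.97), Mov10l1 for Stk31 (0.98) and 2310033P09Rik for Tdrd3 (0.96). Next in line were Tmem231 and Ralgps2 for Tdrd1, Tktl2 and Gm5136 for Tdrd9, Dsn1 and Tmem165 for Tdrkh, pi-Zfp382.1 and Supt20 for Tdrd12, Slf1 and Pibf1 for Rnf17, Cyct and Pou2f2 for Tdrd5, Fbp1 and Ttc12 for Tdrd6, Gm47782 and Plekhd1 for Tdrd7, Wwox and Setd2 for Stk31, and Timm13 and Snx4 for Tdrd3. The 9 points share libraries and depth, and each gene was picked as the highest among the 15250 tested genes.

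Of the 20 piRNA partner genes, all tested, 8 peaked in mP/lP, 11 dipped in pL and 20 were at least 2-fold above Sertoli cells. Of 18 tested genes with Tudor domains outside germ granules, 1 peaked in mP/lP, 7 dipped in pL and 11 were at least 2-fold above Sertoli cells. The shares over all tested genes were 11.3%, 41% and 49.4%. Both lists are given as counts, with no test.

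In Nfya-CKO SpG, no gene of the 10 was at least 2-fold lower or higher than in undiff. SpG on the log2 scale with 0.1 added, where 3.08% of tested genes were lower and 4.09% higher by that much. Without the 0.1, Tdrd6 was at 0.132 times its undiff. SpG level, and with 0.01 added the count of lower genes was 1. RNA was lower by any size in 8 of the 10, against 49.1%. The median log2 ratio was -0.15, against 0.01 over all tested genes. All 10 ratios lay between the 5th and the 95th percentile of tested genes (-0.83 and 0.92), Tdrd6 at the lower edge.

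Tdrd1 was at 1.48 in Nfya-CKO SpG (1.39 to 1.56) and 2.57 in undiff. SpG (2.46 to 2.67), a log2 ratio of -0.76. Tdrd5 was at 0.623 (0.569 to 0.681) and 1.04 (0.971 to 1.11), a log2 ratio of -0.65. Tdrd6 was at 0.0133 (0.00647 to 0.0241, about 10.4 UMIs) and 0.101 (0.0808 to 0.124), a log2 ratio of -0.82 with the 0.1 added and -2.25 with 0.01 added. These 3 and Tdrd7 (0.840 and 0.982, log2 ratio -0.20) were lower outside the counting intervals.

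Tdrd12 moved the other way, with 1.12 in Nfya-CKO SpG (1.04 to 1.19) and 0.720 in undiff. SpG (0.665 to 0.778), a log2 ratio of 0.57. Tdrd9 was at 2.17 (2.07 to 2.27) and 1.95 (1.86 to 2.05), a log2 ratio of 0.15, and these 2 genes were higher outside the intervals. Under median-ratio scaling the log2 ratio of Tdrd9 was 0.0093. For Rnf17 (-0.08), Stk31 (-0.04), Tdrd3 (-0.11) and Tdrkh (-0.18) the intervals overlapped. Counting intervals do not include differences between mice, and Nfya-CKO SpG come from 1 library. Genes separated by their intervals were not counted over all tested genes, so no share is given beside these.

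Against diff. SpG, which come mostly from 8-week mice, 1 of the 10 was at least 2-fold lower (10.5% of tested genes): Tdrd6, with a log2 ratio of -3.06, at the marker levels given above. Tdrd5 changed sign (0.15), Stk31 too (0.13), and Tdrd1 came to -0.13. Rnf17 (-0.46), Tdrd3 (-0.29) and Tdrd7 (-0.27) were lower outside the counting intervals. Tdrd12 was at 0.55 and Tdrd9 at 0.16, close to their values against undiff. SpG. Undiff. SpG were mostly juvenile, so age and genotype cannot be told apart in that comparison, while diff. SpG are closer in age to Nfya-CKO SpG, are named as another stage and share barcodes with them.

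**Figure D3:**
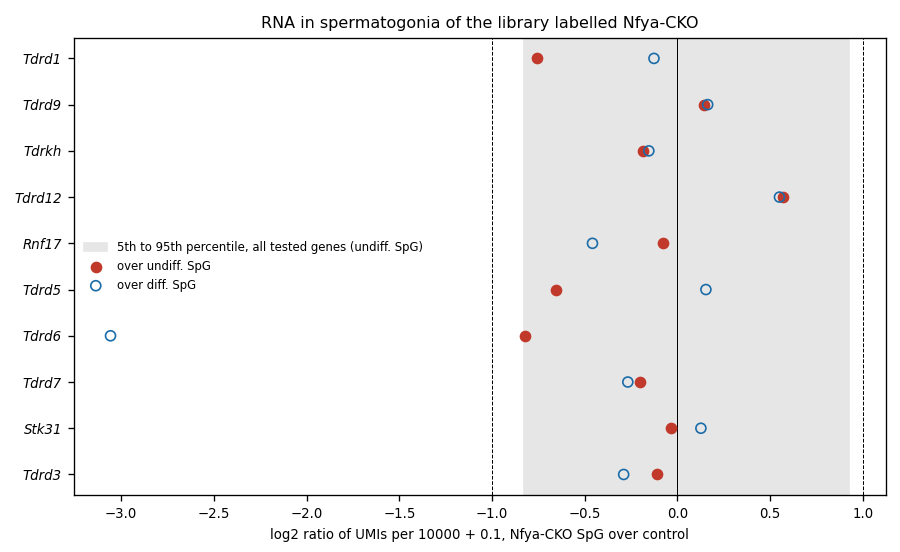
Log2 ratio of RNA (UMIs per 10000 + 0.1) of Nfya-CKO SpG over undiff. SpG (red) and over diff. SpG (blue circles) for each gene, with dashed lines at 2-fold and the 5th to 95th percentile of tested genes against undiff. SpG in grey. All red points are inside the dashed lines, and Tdrd6 over diff. SpG, at -3.06, is the only point past them.

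Markers of other cells also differed between these populations. Cyp17a1, a Leydig cell enzyme, was at 7.39 in Nfya-CKO SpG, 0.0207 in undiff. SpG and 31.2 in other somatic cells, a difference shared by Clu of the Sertoli list (22.8, 2.50 and 91.5). The other Sertoli markers were at 0.820 (Sox9), 0.0116 (Amh) and 0.0565 (Rhox5) in Nfya-CKO SpG and at 0.531, 0.0431 and 0.0278 in undiff. SpG. The 7 markers of other somatic cells summed to 9.02 in Nfya-CKO SpG and 0.412 in undiff. SpG, and none of the 7 was at 0 in either. The part of other cells' RNA in the ratios was not tested.

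Among the piRNA partners, 4 of 20 were at least 2-fold lower and 0 higher in Nfya-CKO SpG than in undiff. SpG, against 3.08% and 4.09% of tested genes, with a list median of -0.52. Against diff. SpG, 5 were lower, against 10.5%, and the median was -0.11. Ybx2 was at 10.6 in diff. SpG. The 7 spermatid markers were lower in Nfya-CKO SpG too, as given above, while the markers of mP/lP and D other than Piwil1 were at 0.223 (Ovol2), 0.00294 (Pgk2) and 0.152 (Spo11) there and at 0.202, 0.0566 and 0.156 in undiff. SpG. Their part in these counts was not tested. The 4 genes past the fold against undiff. SpG were Ybx2, an RNA-binding protein of late germ cells (0.501 against 2.44, log2 ratio -2.08), Ddx25, a helicase of spermatid mRNA storage (0.271 against 0.762, -1.22), Piwil1 (-1.19) and Piwil4, a PIWI protein of fetal germ cells (-1.11). Pnldc1, the trimmer of piRNAs, was at 1.17 against 0.701 (0.67), and Tex15 at 14.7 against 11.0 (0.42). Among the other Tudor genes, 0 of 18 were lower and 1 was higher, the histone demethylase gene Kdm4b (0.426 against 0.154, log2 ratio 1.05), with a list median of -0.09. The ends of that list were Uhrf1 (-0.55) and Lbr (-0.45) below, and Trp53bp1 (0.59) above after Kdm4b.

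Accessibility is the scATAC-seq value of a gene per 1000000 of a population, and the study's methods, which define promoter accessibility on merged tracks as coverage around start sites, do not say whether the deposited gene values were made that way. The fragments behind a value are unknown, so it has no interval. Mitochondrial genes took 31.2% to 64.5% of a population's signal, and levels across the germ and somatic populations are therefore given per 1000000 of nuclear genes, and the ratios of Nfya-CKO SpG over undiff. SpG (46.0% and 40.6% mitochondrial) per 1000000 of all genes, with the nuclear scale beside the counts and the lowest ratios. On the nuclear scale, 7 of the 10 were at least 2-fold higher in their highest control germ cell population than in both somatic populations (35% of compared genes). In 8 of the 10 every control germ cell population was above both (12.3%). The exceptions to the latter were Tdrd7 and Tdrd3. In Nfya-CKO SpG, Tdrkh (54.2) was also below Sertoli cells (63.5) and other somatic cells (69.7).

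Tdrd9 accessibility was 37.5 in undiff. SpG, 55.2 in diff. SpG, 36.5 in pL, 39.8 in eL/L/Z, 56.4 in L/Z/eP, 68.2 in mP/lP, 67.4 in D, 87.1 in RS and 74.2 in ES, against 8.96 in Sertoli cells. Tdrd6 accessibility was 40.4, 25.9, 25.9, 23.1, 33.4, 62.0, 62.8, 56.2 and 43.6 in the same order, against 11.6 in Sertoli cells. The Tdrd6 locus was thus open above the Sertoli level in undiff. SpG and pL, where its RNA was 0.101 and 0.0220. Tdrd5 accessibility rose from 32.6 in pL to 99.1 in ES, the highest value of that gene, while its RNA was highest in mP/lP. In ES, 124 of 1195 cells had a paired accessibility profile, the fewest of any germ cell population.

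Tdrd12 accessibility ran from 43.3 in ES to 71.9 in D, and Tdrd1 from 24.8 in ES to 48.2 in RS. Rnf17, between 60.2 in pL and 79.6 in D, varied least of the 10, by 1.32 times. Stk31 was between 37.6 in pL and 57.8 in ES, Tdrkh between 77.2 in ES and 121.3 in L/Z/eP, and Tdrd7 between 5.24 in ES and 20.2 in RS. Tdrd3 stood at 120.4 in L/Z/eP, 118.2 in Sertoli cells and 119.5 in other somatic cells.

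Across the 9 germ cell populations, RNA and accessibility per 1000000 of nuclear genes had a Pearson r of log2 values above 0 in all 10 genes, from 0.08 for Stk31 to 0.81 for Tdrd12, with a median of 0.57. Over 15127 genes, r was above 0 in 71.1%, with a median of 0.35. With mitochondrial genes in the sum, r was above 0 in 4 of the 10, against 68.6% of these genes, with a median of -0.02 against 0.30. The choice of sum thus sets the sign in 6 of the 10. The points share libraries and depth.

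**Figure D4:**
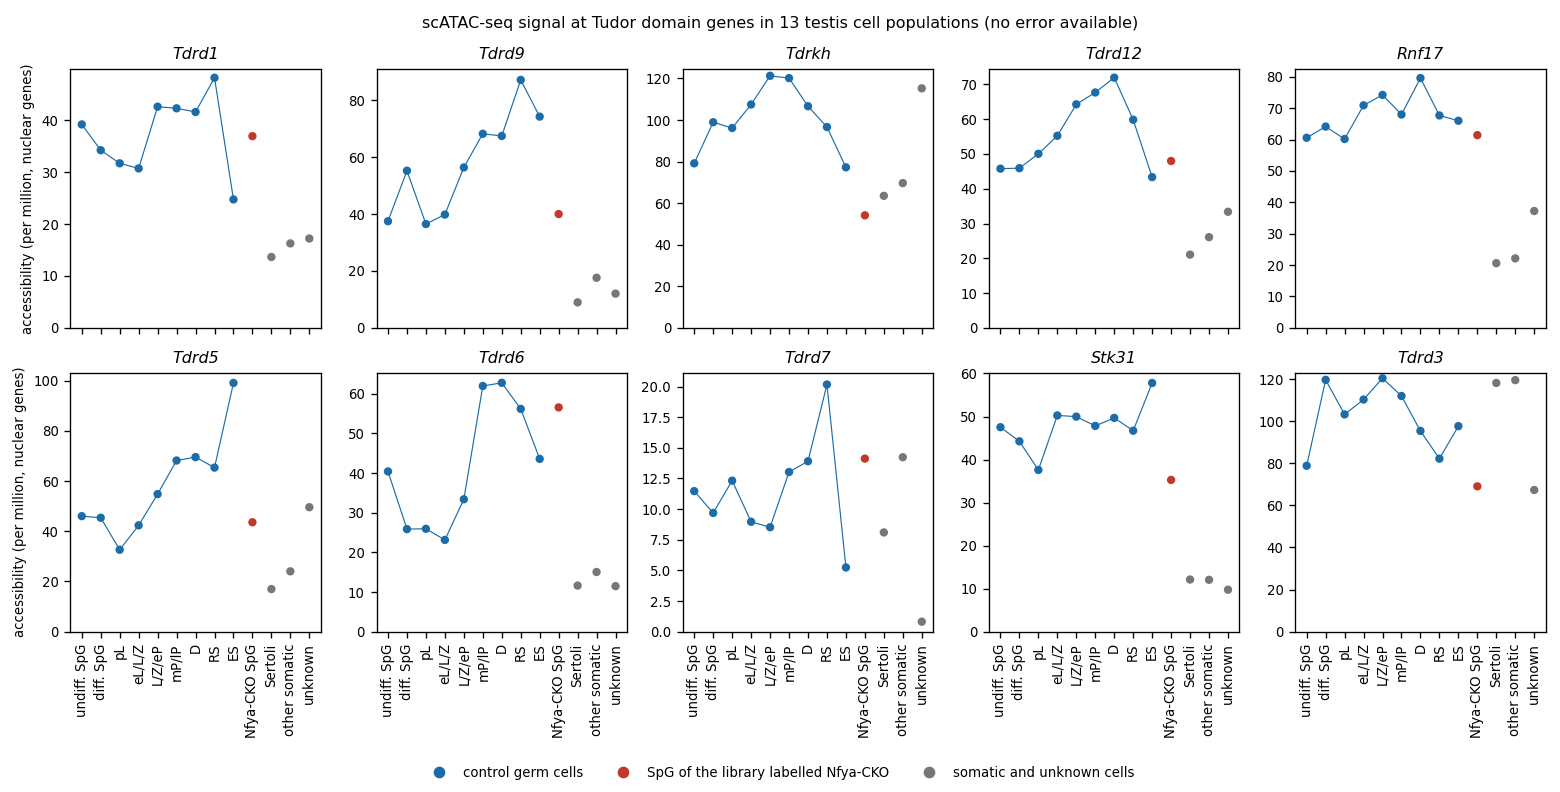
Accessibility of each gene (per 1000000 of nuclear genes, linear axis from 0) in the 13 populations, coloured as in the plot of RNA levels. Each point is 1 pooled value with no error available. Tdrd6 and Tdrd9 are higher from mP/lP to RS than in pL, Rnf17 is nearly flat in germ cells, and Tdrd3 is as high in somatic as in germ cells.

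In Nfya-CKO SpG, accessibility was lower than in undiff. SpG in 8 of the 10 genes per 1000000 of all genes, where 54.6% of 27466 compared genes were lower, and 59.6% of the genes whose undiff. SpG level lay within the range of the 10. Per 1000000 of nuclear genes it was lower in 5 of the 10, against 42.7% of compared genes. The ratio per 1000000 of all genes was under 0.7 in Tdrkh and Stk31, a level reached by 12.7% of compared genes and 7.83% of those in that range. Per 1000000 of nuclear genes it was under 0.7 in 1 gene (7.63% of compared genes). Over diff. SpG the count was 4 per 1000000 of all genes (34.4%), and none is given per 1000000 of nuclear genes. Mitochondrial genes took 35.0% of the signal in diff. SpG and 46.0% in Nfya-CKO SpG, which lowers these ratios on the scale of all genes. The limit of 0.7 was chosen after the values were seen.

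Tdrkh was at 29.2 per 1000000 of all genes in Nfya-CKO SpG, 47.0 in undiff. SpG, 64.4 in diff. SpG and 66.1 in pL. Its ratio over undiff. SpG was 0.622, lower than in all but 6.76% of compared genes, and it was 0.684 per 1000000 of nuclear genes and 0.662 under median-ratio scaling. Its RNA ratio was 0.866 with overlapping intervals. This is the gene with 5 CCAAT matches printed above, where it was picked for this low ratio. The part of the matches in the ratio was not tested.

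Stk31 was at 19.0 in Nfya-CKO SpG, 28.2 in undiff. SpG, 28.8 in diff. SpG and 25.8 in pL, a ratio of 0.675, or 0.742 per 1000000 of nuclear genes, with RNA at 0.975 of the undiff. SpG level. Its promoter stretch held no CCAAT. Tdrd9, with a match, had a ratio of 0.970 over undiff. SpG and 0.601 over diff. SpG per 1000000 of all genes. Per 1000000 of nuclear genes, Tdrd9 was at 40.0 in Nfya-CKO SpG and 55.2 in diff. SpG, and Tdrd3 at 69.1 and 119.6. The ratio over undiff. SpG was 0.796 for Tdrd3 (0.479 over diff. SpG), 0.856 for Tdrd1, 0.861 for Tdrd5, 0.922 for Rnf17 and 0.953 for Tdrd12.

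Tdrd6 and Tdrd7 were more accessible in Nfya-CKO SpG under each scaling. Tdrd6 was at 30.5 against 24.0, a ratio of 1.27, and Tdrd7 at 7.62 against 6.81, a ratio of 1.12. RNA of both was lower there. Median TSS enrichment, a ratio that grows with the share of fragments at start sites, was 7.82 in the paired Nfya-CKO SpG (470 cells) and 12.5 in undiff. SpG (1230 cells), and median fragments were 32543 and 26324. Their part in these ratios was not tested.

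**Figure D5:**
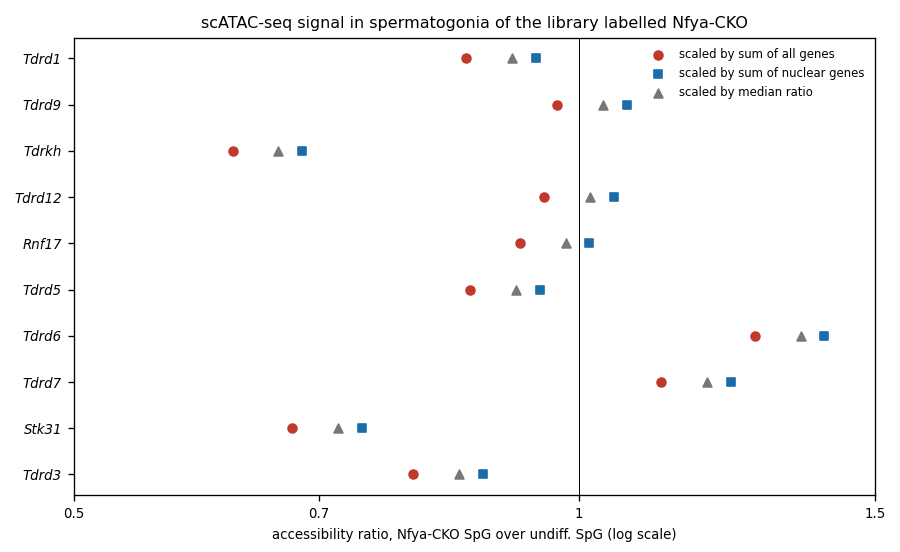
Ratio of accessibility of Nfya-CKO SpG over undiff. SpG (log axis) for each gene under 3 scalings. Tdrkh and Stk31 are lowest and Tdrd6 highest under each, and Tdrd9, Tdrd12 and Rnf17 lie near 1, on different sides of it by scaling.

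The genes lie, by RefSeq on GRCm38, at chr19:56826171-56870012 (Tdrd1), chr12:111971488-112068854 (Tdrd9), chr3:94413243-94434854 (Tdrkh), chr7:35466941-35537784 (Tdrd12), chr14:56402650-56525032 (Rnf17), chr1:156255296-156304304 (Tdrd5), chr17:43615334-43631846 (Tdrd6), chr4:45965027-46034766 (Tdrd7), chr6:49395506-49469506 (Stk31) and chr14:87416178-87545508 (Tdrd3). Tdrd9 also overlaps Rd3l on the other strand, which was at most 0.00764 in any germ cell population.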

How the data were processed

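For scRNA-seq, the authors aligned reads to mm10 with STAR 2.7.10b, kept unique reads, collapsed UMIs and filtered cells with Seurat 5.2.1 (at least 500 genes, under 5% mitochondrial UMIs), removing doublets with DoubletFinder. For scATAC-seq they used BWA 0.7.12, bedtools 2.27.1 and ArchR 1.0.3 (1000 fragments, TSS enrichment of 4), with doublets removed in ArchR. The authors deposited UMI and fragment counts per cell, TSS enrichment per cell (a ratio of coverage at start sites over flanks) and 1 matrix per assay of pooled population values on a natural log scale. Whether introns or strand were used in counting is not given in the sources used here. 14 further columns were not used.

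exp(value) - 1 gave RNA per 10000 and scATAC-seq signal with the same sum, rescaled to 1000000 (Python 3.11.15, numpy 2.4.6, pandas 2.3.3, scipy 1.17.1). A population's UMIs were taken as value, cells and harmonic mean UMIs multiplied, for exact Poisson intervals. Folds used log2(value + 0.1), and genes were called at 2-fold by size alone. Accessibility was compared in the 27466 genes whose mean over populations reached 1 per 1000000. Scripts were tested on simulated data.

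The genes and the lists were chosen with earlier results of these data known. Named genes were the 10, Nfya, markers, the 3 most similar genes per member (r over 9 populations) and the ends of the 2 other lists, plus those past the fold. Alternatives were other pseudocounts, folds, scalings and controls. The scale per 1000000 of nuclear genes for levels, the spans from pL and to RS and the Sertoli-only contrast were added after seeing the data.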

Additional observations from a re-analysis of the deposited data

How the results depend on the processing

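No paired analysis was possible because each group has 1 library, and the pooled columns allow no leave-one-out fit. Of 189 alternatives, 104 stayed near the value (for counts, within 1.5 times), 72 moved it and 13 turned its direction, and the cause was not tested. Within that limit, median-ratio scaling gave 9 genes highest in mP/lP (15.2% of tested genes) and 6 accessibility ratios under 1 (46.9% of compared genes). It gave 4 for the fall from mP/lP to RS, with no share given at this scaling.

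With a pseudocount of 1, 0 genes passed the fold at any step in either direction, the fall from mP/lP to RS was called in 2, and 5 kept the rise from pL to mP/lP. With 0.01, 2 were lower from diff. SpG to pL, 3 higher from L/Z/eP to mP/lP, 3 lower from D to RS and 1 lower in Nfya-CKO SpG. These fits of spans were added after seeing the data. At a fold of 1.5, 2 were lower from undiff. to diff. SpG, 4 from diff. SpG to pL, 2 from mP/lP to D, 6 from D to RS and 2 from RS to ES, while 4 were higher from pL to eL/L/Z, 3 at each of the next 2 steps, and 3 were lower in Nfya-CKO SpG. At a fold of 3, 1 was higher from pL to eL/L/Z, 0 from L/Z/eP to mP/lP, 0 from RS to ES and 0 lower from D to RS or RS to ES, with 4 for the rise from pL to mP/lP and 2 for the fall to RS. Median-ratio scaling gave 3 higher from L/Z/eP to mP/lP, 0 lower from D to RS, 0 higher and 2 lower from RS to ES. No gene was 4-fold above both somatic populations with 0.1 added (0 of 10). The shares of tested genes given above for these calls hold at 2-fold with 0.1 added. None is given at the settings of this paragraph.

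Against diff. SpG, 1 gene was lower in Nfya-CKO SpG, and Tdrd5 (0.15) and Stk31 (0.13) changed sign. Without the filter on low values, 1.69% of all genes were lower and 2.36% higher by 2-fold. Accessibility ratios under 1 numbered 5 without mitochondrial genes, which turned Tdrd9 (1.07), Tdrd12 (1.05) and Rnf17 (1.01), and median-ratio scaling turned Tdrd9 (1.03) and Tdrd12 (1.01). Ratios under 0.7 numbered 1 without mitochondrial genes (7.63% of all compared genes) and 1 under median-ratio scaling (9.03%). Against diff. SpG they numbered 4 with mitochondrial genes in the sum (34.4%). Without mitochondrial genes, r of RNA and accessibility turned positive for Tdrd1 (0.41), Tdrd9 (0.54), Tdrd12 (0.81), Rnf17 (0.59), Tdrd5 (0.52) and Stk31 (0.0806).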
